A study of Mus musculus with 30 samples.

Results

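The expression of 7 genes of the lens fiber cell was examined in whole eye and hypothalamus: Mip, Lim2, Gja3, Bfsp1, Bfsp2, Hsf4 and Dnase2b. The members were chosen by name and comprise every array feature that carries one of these gene names, which gave 11 probes for 7 genes among the 41174 probes and 28508 names on the array. The animals were adult male Per3-/- mice and their wild-type (WT) littermates on a C57Bl/6J background, all exposed to repeated cycles of 3.5 h light and 3.5 h dark and killed in the 17th cycle. The eye groups held 7 WT and 7 Per3-/- mice, and the hypothalamus groups held 8 WT and 8 Per3-/- mice, with 1 single-color array for each mouse and tissue. The hypothalamic samples were blocks cut around the optic chiasm, and the eyes were extracted whole, so lens RNA was measured together with RNA of retina, cornea, pigmented layers and attached muscle. The Per3-/- line carries a replacement within the Per3 gene in every cell, and no tissue-specific deletion was used.

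Lens fiber cells arise from the epithelium of the lens, elongate, fill with crystallins and then destroy their nuclei and organelles, after which no new RNA is made in them. Their membranes are rich in the water channel encoded by Mip, the tetraspan membrane protein encoded by Lim2 and a connexin encoded by Gja3, which couples neighboring fibers through gap junctions. Bfsp1 (filensin) and Bfsp2 (phakinin) form the beaded filament, an intermediate filament of the lens. Hsf4 is the heat shock transcription factor of the lens, and Dnase2b encodes the acid nuclease that degrades fiber cell DNA when the nucleus is lost. In a whole organ, fewer lens fibers and less RNA for each fiber cannot be told apart.

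An eye array had 71.5% to 80.8% of its probes well above background, and a hypothalamic array 68.0% to 75.7%. Of the marker genes, 5 of 5 lens markers were well above background on every eye array. The same held for 8 of 9 hypothalamic neuron markers on every hypothalamic array. Detection alone does not check the tissue labels: 2 of the 5 lens markers were also detected on every hypothalamic array, and 5 of the 9 neuron markers on every eye array. Each of these markers had a higher WT mean in its own tissue, as for Crybb1 (log2 6.50 in eye, -1.49 in hypothalamus) and Gal (0.12 and 3.27). The probe of the targeted gene, Per3, ranged from -3.55 to -2.57 (log2) in WT eyes and from -4.12 to -2.90 in Per3-/- eyes. In the hypothalamus it ranged from -3.79 to -3.28 in WT and from -4.21 to -3.59 in Per3-/- mice. The groups overlapped in both tissues. Per3-/- minus WT was -0.45 in the eye (limma adjusted p = 0.99995) and -0.51 in the hypothalamus (limma adjusted p = 0.0657). Whether this probe lies in the replaced part of the gene was not determined here. The arrays of each tissue came on 4 slides, and each slide held both genotypes.

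Each probe is a 60-base strand, and the file annotation places it on mouse build mm9. Mip, Lim2, Bfsp1, Hsf4 and Dnase2b had 1 probe each, and Bfsp2 and Gja3 had 3 each. The probes of Bfsp2 and Gja3 are shown because the 3 probes of each gene did not behave alike.
Bfsp2, probe A_51_P298802: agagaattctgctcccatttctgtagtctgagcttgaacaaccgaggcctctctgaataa
Bfsp2, probe A_52_P530082: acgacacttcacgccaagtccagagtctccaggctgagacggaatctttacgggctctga
Bfsp2, probe A_51_P274716: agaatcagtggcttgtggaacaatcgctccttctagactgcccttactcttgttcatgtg
Gja3, probe A_52_P17582: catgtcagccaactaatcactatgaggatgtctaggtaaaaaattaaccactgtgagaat
Gja3, probe A_51_P329460: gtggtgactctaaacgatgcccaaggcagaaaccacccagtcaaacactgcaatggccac
Gja3, probe A_51_P111704: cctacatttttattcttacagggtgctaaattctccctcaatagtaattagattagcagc
Lim2, probe A_51_P487028: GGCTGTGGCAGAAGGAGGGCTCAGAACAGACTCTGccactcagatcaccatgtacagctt

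The first 2 Bfsp2 probes lie on the minus strand of chromosome 9, the strand of the gene, at chr9:103327254-103327283 and chr9:103329107-103335047. The first of these positions covers only 30 bases and so places part of the probe, whereas the second spans 5941 bases, more than the probe's own length. The third Bfsp2 probe, at chr9:103363446-103363505, is named for a cDNA clone and reads the plus strand, opposite to the gene. Across the array, 99.7% of 21381 probes with a RefSeq transcript lay on the strand of their gene by the same reading. The Gja3 probes lie on the minus strand of chromosome 14, the strand of the gene. The probes at chr14:57653539-57653598 and chr14:57654779-57654838 are 1240 bases apart, and the third, at chr14:57674459-57674518, is 19680 bases from the second. The first and the third of these are named for cDNA clones and the second for the RefSeq transcript. The capitals in the Lim2 probe mark the 35 bases that match transcript bases 16 to 50 of the RefSeq Lim2 gene, so this probe reads the beginning of the transcript. It lies at chr7:50685484-50685971. The single probes of Mip (chr10:127668747-127668806), Bfsp1 (chr2:143652456-143652515), Hsf4 (chr8:107798959-107799409) and Dnase2b (chr3:146245213-146245272) complete the set, and no exon is named for any probe in the files. For Bfsp2 and Gja3 the probe of highest mean eye signal, listed first above, is the one reported unless another is named.

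All levels below are log2 signals relative to the 75th percentile of the same array, so 0 is that percentile and each unit is a doubling. Levels of different probes cannot be ranked against each other, because probes differ in their hybridization.

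In the eye, every reported probe was well above background on all 14 arrays, and no member probe was saturated. The level of Mip, the water channel, was 5.15 in the lowest, 5.66 in the median and 5.89 in the highest WT eye, against 4.95, 5.59 and 5.75 in Per3-/- eyes. Lim2 ranged from 1.38 through a median of 1.72 to 2.48 in WT eyes and from 1.09 through 1.75 to 2.16 in Per3-/- eyes. Gja3, the connexin, gave 2.04, 2.25 and 2.75 as lowest, median and highest values in WT eyes and 2.04, 2.30 and 2.52 in Per3-/- eyes. For these 3 membrane genes the ranges of the genotypes overlapped over most of their length.

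Of the filament genes, Bfsp1 had the smallest range of the 7 genes between eyes. It ranged from 6.78 through 6.99 to 7.29 in WT eyes and from 6.73 through 7.06 to 7.19 in Per3-/- eyes, a whole range of 0.56 log2 units over the 14 eyes. Bfsp2 ranged from 6.91 through 7.07 to 7.497 in WT eyes and from 6.66 through 7.23 to 7.40 in Per3-/- eyes. The lowest Bfsp2 value belonged to Per3-/- eye 5, and the next lowest Per3-/- eye was at 7.09. Hsf4, the transcription factor, lay below the 75th percentile, at -1.77, -1.58 and -1.18 in WT eyes and at -2.02, -1.58 and -1.12 in Per3-/- eyes. Dnase2b, the nuclease, ranged from 0.72 through 1.06 to 1.74 in WT eyes and from 0.61 through 1.08 to 1.52 in Per3-/- eyes.

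**Figure D1:**
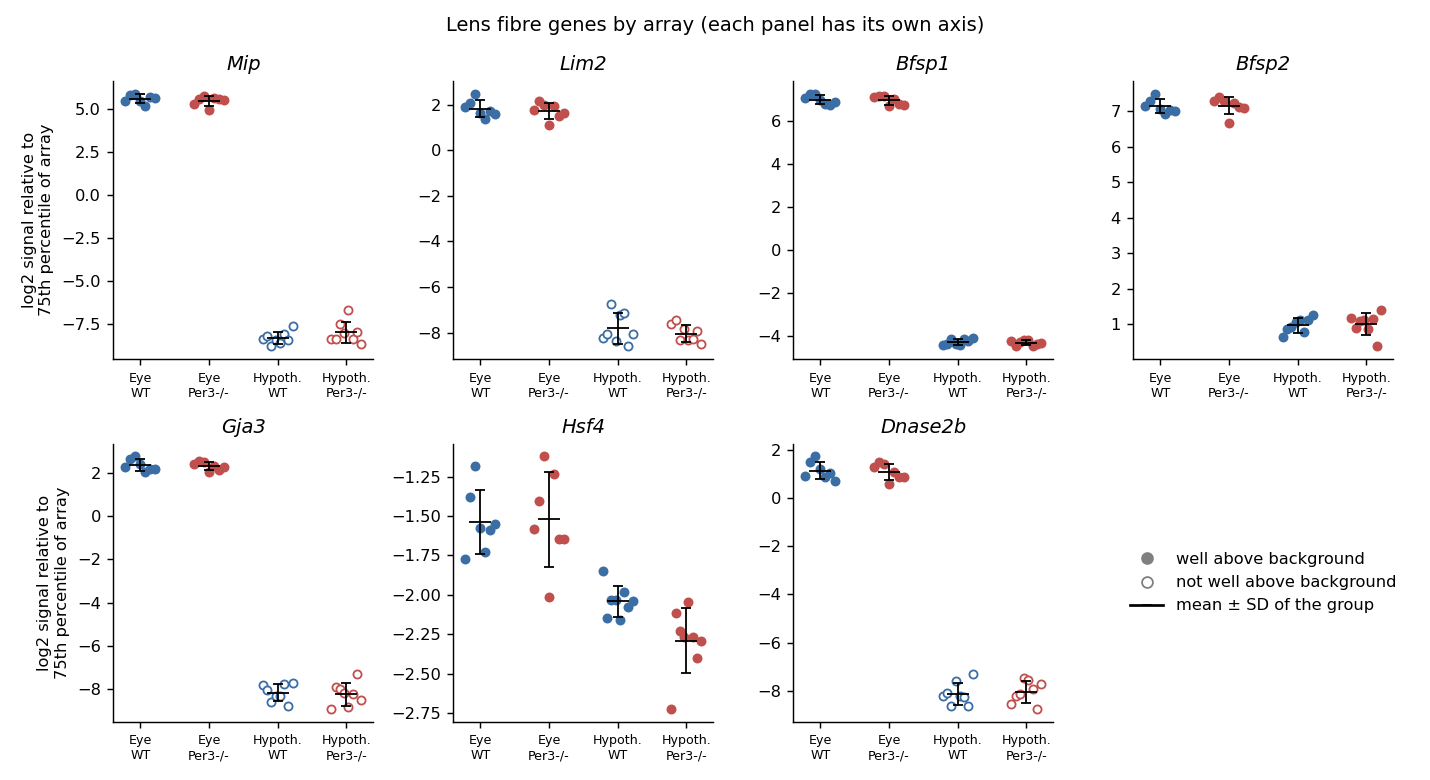
Levels of the 7 lens fiber genes on each array, as log2 signal relative to the array's 75th percentile, in 4 groups, with a separate vertical axis for each gene; points are arrays, open where the probe was not well above background, and bars are mean ± SD. The eye groups overlap for each gene, and the probes shown for Mip, Lim2, Gja3 and Dnase2b have only open points in the hypothalamus.

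The eye was compared with the hypothalamus in WT mice, and all 7 genes were higher in the eye (limma, adjusted p below the threshold of 0.05). This count carries little weight by itself, since 42.1% of all probes were called higher in the eye. The size of the difference set 6 of the genes apart from most of the array: their differences were above 5 log2 units, a size reached by 1.91% of all probes, while Hsf4 differed by 0.50. The median difference over the 7 genes was 9.63 log2 units and that over all probes was 0.16. The tissues were hybridized on separate slides, so tissue and slide cannot be told apart.

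The reported probes of Mip, Lim2, Gja3 and Dnase2b were not well above background on any of the 16 hypothalamic arrays, so only a lower limit can be given for these probes. Mip was at least 4294-fold higher in the WT eye than in the WT hypothalamus, with measured means of 5.59 and -8.29. The reported Gja3 probe was at least 454-fold higher, Lim2 at least 316-fold and Dnase2b at least 197-fold, with measured means in the hypothalamus of -8.17, -7.81 and -8.13. These limits set the mean of the 7 WT eyes against the dimmest signals that still counted as well above background on the 8 WT hypothalamic arrays. They hold only for this background treatment and are 12.07 log2 units for Mip, 8.83 for Gja3 and 8.30 for Lim2. With the normexp background, whose offset raises dim signals, the differences were smaller, 9.93, 6.67 and 6.05. For Dnase2b the limit is 7.62, and the lowest difference over the alternatives was 5.52. The Gja3 probe of the RefSeq transcript gave a smaller difference, 5.59 log2 units (SE 0.34) or 48.3-fold, between means of -0.89 and -6.48. In the hypothalamus this probe was well above background in WT block 3 (-3.79) and Per3-/- block 7 (-6.56), and not in the other blocks. Its WT hypothalamic mean thus combines signals not well above background with the high WT block 3 (WT median -6.76). The value of 48.3-fold is therefore not a firm estimate.

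The filament genes were measurable in both tissues. Bfsp1 averaged 7.02 ± 0.20 (SD, n = 7) in the WT eye and -4.26 ± 0.13 (SD, n = 8) in the WT hypothalamus, a difference of 11.27 log2 units (SE 0.09). Its hypothalamic signal, although dim, was well above background on 16 of 16 arrays. Bfsp2 averaged 7.14 ± 0.20 (SD, n = 7) and 0.97 ± 0.21 (SD, n = 8), a difference of 6.17 log2 units (SE 0.12), or 72.0-fold. Thus Bfsp2 was still close to 1 log2 unit above the 75th percentile of the hypothalamic arrays.

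The hypothalamic Bfsp2 signal was seen by both probes on the strand of the gene. Over the 8 WT blocks the reported probe was at 0.64, 0.997 and 1.27 as lowest, median and highest value, and over the 8 Per3-/- blocks at 0.38, 1.11 and 1.41. The other probe gave -0.62, -0.29 and 0.01 in WT and -0.98, -0.23 and 0.06 in Per3-/- blocks. Both probes were lowest in Per3-/- block 7 and highest in Per3-/- block 8. Across the 16 blocks, with genotype means removed, the 2 probes were correlated with r = 0.98 and rho = 0.93 (permutation p = 1e-05 for each, the smallest that the permutations can give). The correlation was 0.95 without the 2 blocks farthest from the median and 0.98 with slide means removed as well.

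Hsf4 differed least between the tissues. It averaged -1.54 ± 0.20 (SD, n = 7) in the WT eye and -2.04 ± 0.10 (SD, n = 8) in the WT hypothalamus, a difference of 0.50 log2 units (SE 0.11, limma adjusted p = 0.000101). Over the alternative settings this difference lay between 0.28 and 0.66, with adjusted p up to 0.0323. Hsf4 was well above background on all 30 arrays.

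The genotypes were then compared in each tissue. In the eye, none of the 7 genes passed the test between Per3-/- and WT mice (limma, Benjamini-Hochberg adjusted p, lowest member adjusted p = 0.99995), and none reached an unadjusted p below 0.05. Of all probes, 8 were called, or 0.0194%, and 740 had an unadjusted p below 0.05. The differences, Per3-/- minus WT, were -0.11 for Mip (SE 0.14), -0.11 for Lim2 (SE 0.19), -0.05 for Gja3 (SE 0.12), -0.03 for Bfsp1 (SE 0.11), 0.01 for Bfsp2 (SE 0.12), 0.02 for Hsf4 (SE 0.13) and -0.05 for Dnase2b (SE 0.18), all in log2 units. Thus 5 were below 0 and 2 above, with a median of -0.05 beside a median of 0.0042 over all probes.

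The 95% confidence intervals show what these eyes could have missed. The widest belonged to Lim2, from -0.50 to 0.29, and the narrowest to Bfsp1, from -0.26 to 0.21. Over the 7 genes the intervals reached from a level of 0.705 times WT (Lim2) to 1.26 times WT (Dnase2b). An exact permutation test over all 3432 arrangements of the eyes gave two-sided p values from 0.449 for Mip to 0.919 for Bfsp2. With genotypes rearranged only within slides (432 arrangements), the exact p values lay between 0.278 for Mip and 0.898 for Bfsp2. No member separated the genotypes without overlap, which 0.0704% of all probes did.

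Within single slides the sign of the genotype difference was not stable. On slide 2, with 2 WT and 2 Per3-/- eyes, 6 of the 7 genes were lower in Per3-/- eyes, by at most 0.21 log2 units. On slides 3 and 4, 5 of the 7 genes were lower on each. On slide 1, which held 1 eye of each genotype, 5 of the 7 were higher in the Per3-/- eye, Dnase2b by 0.37. Mip was lower in Per3-/- eyes on all 4 slides, by 0.17, 0.18, 0.01 and 0.12, beside an SD within slides of 0.18 (0.27 between eyes).

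**Figure D2:**
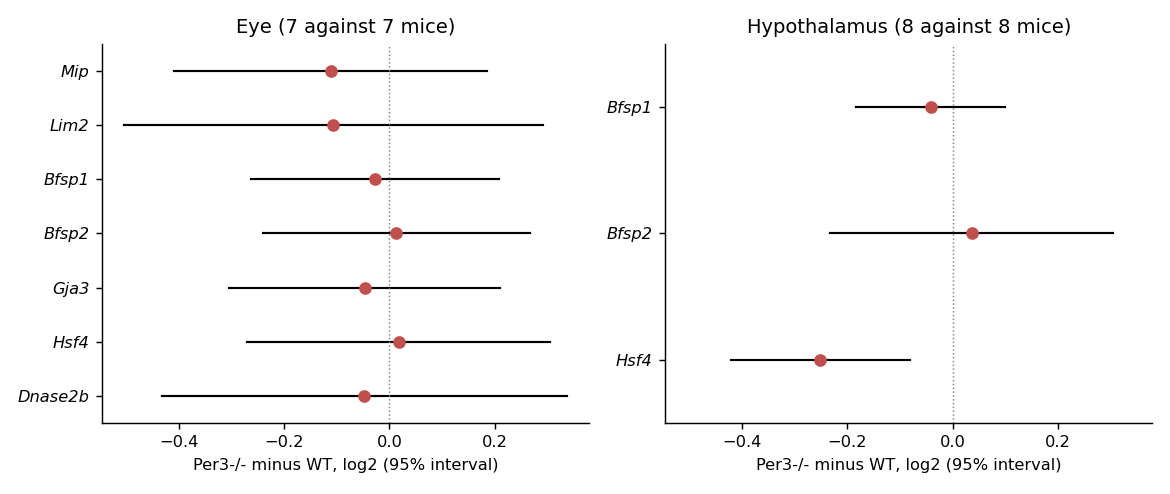
Difference between Per3-/- and WT mice in log2 units for each lens fiber gene in the eye (left) and for the 3 genes well above background on every hypothalamic array (right); points are fitted differences and lines are 95% confidence intervals without adjustment for the number of probes. All eye intervals include 0, and the hypothalamic Hsf4 interval, from -0.42 to -0.08, does not.

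In the hypothalamus no member passed the test either (limma, lowest member adjusted p = 0.991), where 17 of all probes were called, or 0.0413%, and 1163 had an unadjusted p below 0.05. Bfsp1 differed by -0.04 (SE 0.07) and Bfsp2 by 0.04 (SE 0.13). For Hsf4 the values were -2.16, -2.04 and -1.85 as lowest, median and highest in WT blocks and -2.73, -2.27 and -2.04 in Per3-/- blocks. Thus 6 of the 8 Per3-/- blocks lay below the lowest WT block, and the groups overlapped. The difference was -0.25 log2 units (SE 0.08), with an unadjusted p of 0.00642 and an adjusted p of 0.991 in limma. The exact permutation p for Hsf4 alone was 0.00264 over 12870 arrangements and 0.00617 within slides. Hsf4 was lower in Per3-/- blocks on each of the 4 slides, by 0.42, 0.22, 0.08 and 0.29. The difference was -0.19 without Per3-/- block 1, the lowest of the 16. In the eye Hsf4 differed by 0.02, and the difference of the genotype effect between tissues was 0.27 log2 units (SE 0.15, limma adjusted p = 0.99997). None of the 7 genes was called in that comparison, in which 0.00486% of all probes were.

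The levels of the 7 genes varied together from eye to eye. With genotype means removed, the 21 pairs of members had correlations from 0.55 to 0.96 over the 14 eyes, with a median of 0.84. After adjustment over the 60 relations computed, 20 of the 21 pairs passed by Pearson's r and 21 by Spearman's rho (permutation test with 100000 draws). These draws moved eyes across slides, and the share of all probe pairs that would pass was not determined. By r with the mean of the other members, Lim2 ranked 9 among 27886 probes and Bfsp2 10. Gja3 and Dnase2b ranked 43, Bfsp1 81, Hsf4 97 and Mip 423. With slide means removed the ranks ran from 8 (Bfsp2) to 936 (Gja3). The shared source of the points is the array: each eye contributes 1 array, 1 RNA extract and 1 dissection to all genes.

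The closest pair was Lim2 and Bfsp2, with r = 0.96 and rho = 0.95 (permutation p = 1e-05 for each, adjusted p = 8.57e-05 and 0.00015). Gja3 and Dnase2b had r = 0.95 and rho = 0.96 (permutation p = 1e-05 for each, with the same adjusted values). Bfsp1 and Bfsp2, the partners of the beaded filament, had r = 0.88 and rho = 0.93 (permutation p = 1e-05 for each). Over all eyes Mip had the lowest r of the 7 genes with the mean of the other members (0.75), and its r was 0.84 with Hsf4, 0.78 with Lim2, 0.77 with Bfsp2, 0.64 with Gja3, 0.63 with Dnase2b and 0.55 with Bfsp1. The pair Mip and Bfsp1 was the one that missed the threshold by Pearson's r (permutation p = 0.0409, adjusted p = 0.0587; rho = 0.66, permutation p = 0.0124, adjusted p = 0.0201). Without the 2 eyes farthest from the median of Mip, the r of this pair was 0.28, and over the 21 pairs the r after such a removal ranged from 0.28 to 0.94.

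The same eyes were high or low for most of the genes. WT eye 4 was the highest of all for 6 of the 7 genes, and Per3-/- eye 5 the lowest for 6 of the 7. From the lowest to the highest eye, the signal differed 1.48-fold for Bfsp1, 1.64-fold for Gja3, 1.79-fold for Bfsp2, 1.86-fold for Hsf4, 1.92-fold for Mip, 2.19-fold for Dnase2b and 2.61-fold for Lim2. The SD between eyes with genotype removed ran from 0.20 for Bfsp1 to 0.36 for Lim2, and exceeded the median of 0.18 over the 27892 probes well above background on every eye array for all 7 genes.

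**Figure D3:**
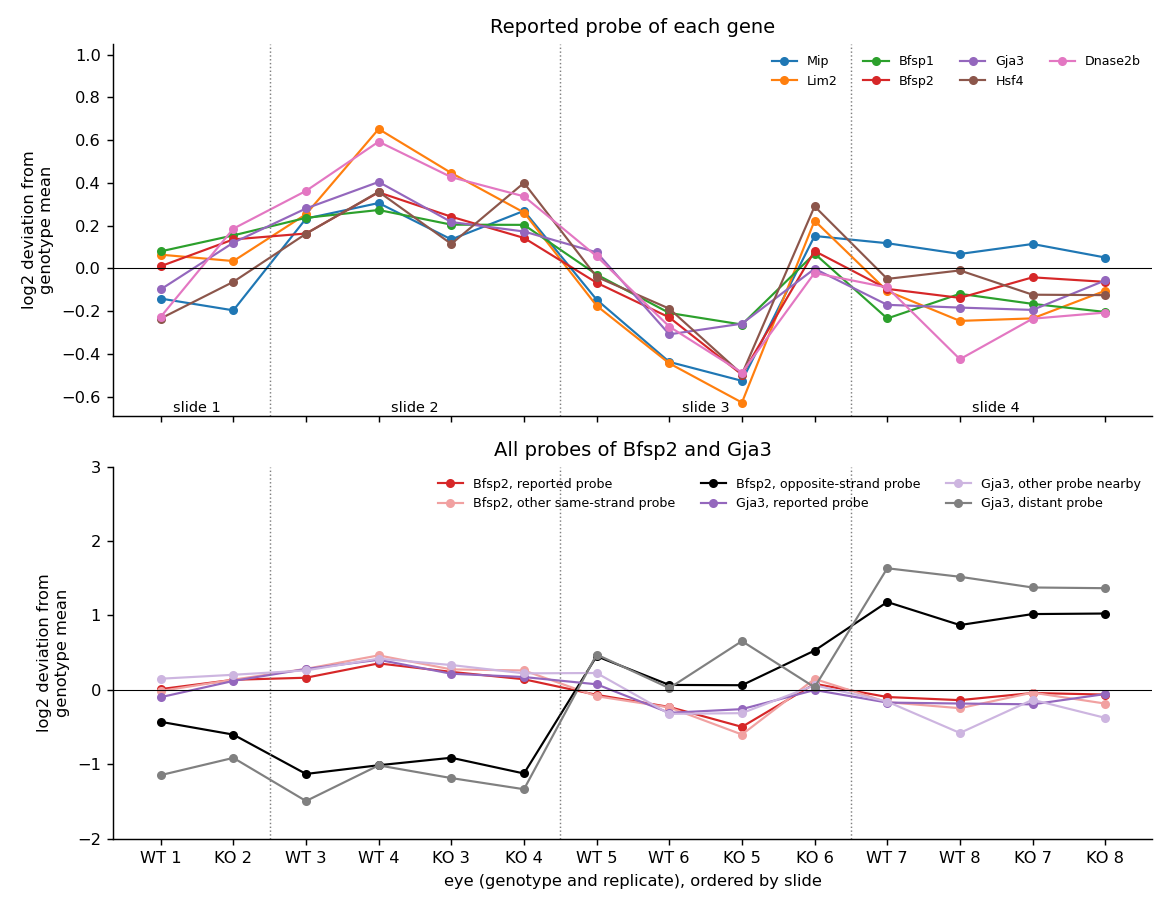
Deviation of each eye from the mean of its genotype, in log2 units, with the 14 eyes ordered by slide (dotted lines separate slides); the upper panel has the reported probe of each gene and the lower panel all 3 probes of Bfsp2 and of Gja3. The 7 genes are high on slide 2 and 6 of them are lowest in Per3-/- eye 5, Gja3 being lowest in WT eye 6, while the opposite-strand Bfsp2 probe and the distant Gja3 probe step up from slide 2 to slide 4.

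Part of this shared variation followed the slides. All 7 genes had their highest slide mean on slide 2, where Lim2 averaged 2.17 against 1.51 on slide 3 and 1.60 on slide 4. Slide means held between 48.6% (Hsf4) and 83.0% (Bfsp1) of the variance between eyes, against a median of 33.9% over the 27892 probes. With slide means removed as well, all 21 correlations remained positive, from 0.56 to 0.91, with a median of 0.79. Lim2 and Bfsp2 had r = 0.91, Mip and Hsf4 0.89, and Mip and Bfsp1 0.88. Mip was then no longer the lowest: its r with the mean of the other members was 0.87, above those of Hsf4 (0.84), Gja3 (0.76) and Dnase2b (0.76). When eyes were permuted only within slides (27648 arrangements), the permutation p of the pairs was 0.00304 at its lowest (Bfsp2 and Dnase2b) and none passed after adjustment (adjusted p from 0.0686 to 0.342). The within-slide correlations rested in part on Per3-/- eye 5, without which their median was 0.69, with a range from 0.32 to 0.89. Without the 4 eyes of slide 2 the median over the pairs, genotype means removed, was 0.71, with a range from 0.15 to 0.92.

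**Figure D4:**
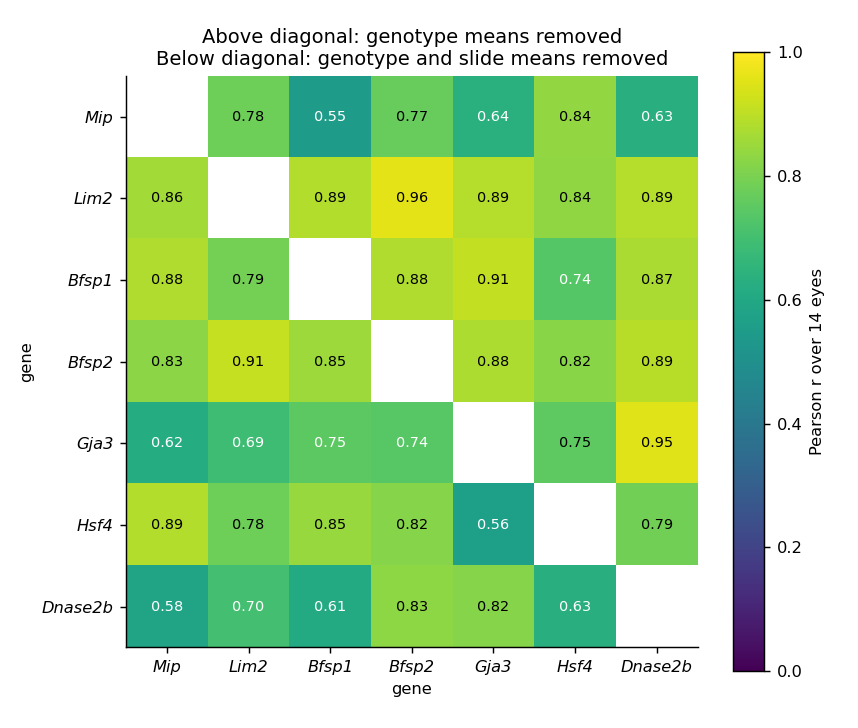
Pearson correlations between the 7 lens fiber genes over 14 eyes, with genotype means removed (above the diagonal) and with genotype and slide means removed (below the diagonal); the color scale runs from 0 to 1. The values above the diagonal run from 0.55 to 0.96 and those below it from 0.56 to 0.91.

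The opposite-strand Bfsp2 probe and the distant Gja3 probe differed from the other probes of their own genes in their slide means, which were highest on slide 4. The opposite-strand Bfsp2 probe lay between -4.23 and -4.05 on slide 1, between -4.75 and -4.54 on slide 2, between -3.56 and -3.10 on slide 3 and between -2.75 and -2.44 on slide 4. The slides did not overlap for this probe, and 97.1% of its variance between eyes lay between them, more than for 99.5% of all probes. The distant Gja3 probe was similar, although slides 1 and 2 overlapped for it, with slide means of -7.21, -7.44, -5.89 and -4.71 and 97.2% of its variance between slides, and was well above background on only 7 of the 14 eye arrays. Since nearly all of the variance of these probes lay between slides, no correlation over all eyes is given for them. With slide means removed, the opposite-strand probe had r = 0.71 with the reported Bfsp2 probe (within-slide permutation p = 0.0700, adjusted p = 0.168), and the distant Gja3 probe r = 0.18 with the reported Gja3 probe (within-slide permutation p = 0.587).

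The remaining probes of these genes followed the reported ones. The other same-strand Bfsp2 probe had r = 0.98 and rho = 0.97 with the reported probe over the 14 eyes (permutation p = 1e-05 for each) and r = 0.97 within slides (within-slide permutation p = 0.000253, adjusted p = 0.0152). The Gja3 probe 1240 bases away had r = 0.85 and rho = 0.86 (permutation p = 0.000200 and 0.000170), and r = 0.67 within slides.

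The other genes of the lens were set beside the members. Crystallins, the soluble proteins that fill the fiber cell, were measured for 15 of 16 genes, all well above background on every eye array, and none was called between genotypes in either tissue. Cryga, Crygc, Crygd, Cryge and Crygf are close copies of each other, so their probes may share signal. With the mean of the 7 members, 14 of the 15 crystallins had r above 0.5, beside 10.1% of all 27892 probes, with a median of 0.90 beside -0.08. Crybb3 and Crybb1, beta crystallins of the fiber, had r = 0.96 and 0.95, and Crygs, a gamma crystallin of the adult lens, 0.94. Cryaa, the alpha crystallin with chaperone activity, was lowest with 0.41. With slide means removed, 13 of the 15 were above 0.5, beside 18.5% of all probes.

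The summed level of the crystallins was correlated with each of the 7 genes at r from 0.76 (Mip) to 0.95 (Bfsp2), and 7 of 7 passed after adjustment (permutation test, highest adjusted p = 0.00288). For Bfsp2 rho was 0.87 (permutation p = 0.000130, adjusted p = 0.000557). Within slides these correlations ran from 0.70 to 0.89, and none passed after adjustment (within-slide permutation, adjusted p from 0.0686 to 0.251).

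Of 20 other genes with known roles in lens fibers, 7 had r above 0.5 with the mean of the members, beside 10.1% of all probes, and 4 did so within slides, a share near the 18.5% of all probes. Their median r was 0.11. Grifin, a galectin-related lens protein, had r = 0.95 (0.92 within slides) and Lctl, a klotho-family protein, 0.85 (0.87 within slides). Gje1, a lens connexin with a dim probe (WT eye mean -4.10), had r = 0.82, and 0.497 within slides. Lgsn (lengsin) had r = 0.81, both with and without slide means. Genes that are also used outside the lens differed among themselves: r was 0.10 for the intermediate filament gene Vim and 0.06 for the connexin Gja1, but 0.75 for the adhesion molecule Nrcam and 0.67 for Caprin2. All 4 were well above background on every hypothalamic array. So were Grifin and Lctl, and this detection does not set the 4 apart from them. Within slides r was 0.45 for Nrcam and 0.44 for Caprin2. Fyco1 and Capn3 ran the other way, with r = -0.73 and -0.70. None of the 20 genes was called between genotypes, and their median difference in the eye was 0.0040 log2 units.

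Of 14 transcription factors of lens development, 13 were well above background on every eye array, and 2 had r above 0.5 with the mean of the members, a share near the 10.1% of all probes. These were Pitx3, required for lens development, with 0.87 (0.77 within slides), and Maf, an activator of crystallin genes, with 0.66 (0.18 within slides). Within slides 2 were above 0.5, Pitx3 and Sox1 (0.55), beside 18.5% of all probes. The median r was 0.06, with Pax6 at -0.07, Prox1 at 0.06 and Sox2 at 0.07. None was called between genotypes in either tissue.

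Markers of other eye tissues were compared in the same way, since the composition of a whole eye can differ between dissections. The summed rod photoreceptor level, over 9 of 10 listed genes, had r from 0.49 to 0.73 with the 7 members, of which 3 passed after adjustment (permutation test, lowest adjusted p = 0.00708), and from 0.25 to 0.67 within slides. Single rod genes followed the mean of the members less, with a median r of 0.38 and Pde6a at -0.46. Only 1 of the 9 was above 0.5, a share near the 10.1% of all probes. Within slides 3 were above 0.5, beside 18.5% of all probes. The summed skeletal muscle level, over 10 of 10 genes, had r from -0.76 (Bfsp1, permutation p = 0.00254, adjusted p = 0.00544) to -0.46 (Mip, permutation p = 0.10003, adjusted p = 0.130). Of the 7 muscle relations, 6 passed by Pearson's r and 4 by Spearman's rho. Within slides r ran from -0.62 to -0.29, with none passing. The muscle relation was stronger in WT eyes alone, with a median r of -0.90 over the 7 members, than in Per3-/- eyes alone, with -0.37. Whether the genotypes differ in this was not tested. Corneal markers (r from -0.30 to 0.30) and pigment epithelium and melanocyte markers (r from 0.00 to 0.44) had no relation that passed. The summed muscle level ranged from 8.63 to 9.82 in WT eyes and from 8.85 to 9.96 in Per3-/- eyes, and the summed rod level from 9.46 to 9.74 and from 9.47 to 9.73. The part of muscle or rod content in the covariation of the members was not tested. With each member expressed relative to the summed rod level instead of the array percentile, the median correlation of the pairs was 0.76. That setting subtracts 1 shared value from both genes of a pair, which can itself raise r, so it does not address composition.

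**Figure D5:**
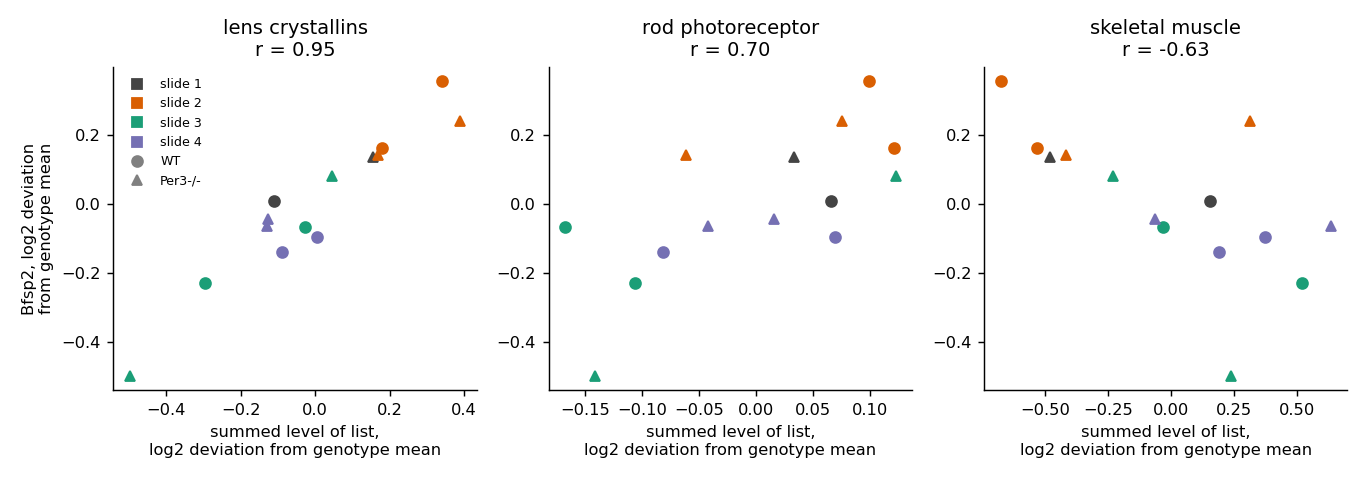
Bfsp2 against the summed levels of lens crystallins, rod photoreceptor genes and skeletal muscle genes in 14 eyes, each as log2 deviation from the genotype mean; colors mark slides, circles WT and triangles Per3-/- eyes. Bfsp2 follows the crystallins closely (r = 0.95), the rod genes less closely (r = 0.70) and runs against the muscle genes (r = -0.63). With the muscle genes r was -0.94 in WT eyes alone and -0.37 in Per3-/- eyes alone.

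Outside the members and crystallins, the genes whose eye pattern was most like the mean of the 7 members were Smap2 (r = 0.99 over 14 eyes, 0.98 within slides), the transcript named NAP103733-1 (0.98 and 0.94), Tcp11 (0.98 and 0.92), Srd5a2 (0.95 and 0.86), Snx22 (0.95 and 0.87), Svbp (0.95 and 0.88), Mocs2 (0.95 and 0.83), Glycam1 (0.95 and 0.90), Grifin (0.95 and 0.92) and Dhx32 (0.95 and 0.89). This is a description of which probes lay closest, out of 27892. Srd5a2 was well above background on 0 of the 16 hypothalamic arrays and Glycam1 on 5, while the other 8 were so on 16. None of the 10 was called between genotypes in the eye.

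The promoters of the members were also read for letters of the factors that act on lens genes. The RefSeq table on build GRCm38.p6 held the window from 250 bases before to 50 after the start for 6 of the 7 genes, with 2 starts for Gja3. The searched words were the Maf half-site TGCTGA and the heat shock element in its 2 phases, GAANNTTC and TTCNNGAA, on both strands, and no word overlaps another in these windows. The windows that hold a match are shown with the match in capitals, as bases read 5′ to 3′ along the gene.
Mip (chr10:128225560-128225859, plus strand): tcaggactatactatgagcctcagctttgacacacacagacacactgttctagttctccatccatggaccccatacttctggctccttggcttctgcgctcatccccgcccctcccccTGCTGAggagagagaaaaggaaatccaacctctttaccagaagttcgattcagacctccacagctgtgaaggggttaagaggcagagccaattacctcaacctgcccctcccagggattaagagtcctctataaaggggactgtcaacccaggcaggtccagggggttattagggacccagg
Lim2 (chr7:43429849-43430148, plus strand): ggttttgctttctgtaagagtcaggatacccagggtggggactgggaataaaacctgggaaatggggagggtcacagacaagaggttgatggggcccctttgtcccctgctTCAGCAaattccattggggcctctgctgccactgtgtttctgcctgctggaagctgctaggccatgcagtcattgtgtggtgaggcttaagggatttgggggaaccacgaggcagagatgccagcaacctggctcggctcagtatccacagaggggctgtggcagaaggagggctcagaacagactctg
Bfsp1 (chr2:143863124-143863423, minus strand): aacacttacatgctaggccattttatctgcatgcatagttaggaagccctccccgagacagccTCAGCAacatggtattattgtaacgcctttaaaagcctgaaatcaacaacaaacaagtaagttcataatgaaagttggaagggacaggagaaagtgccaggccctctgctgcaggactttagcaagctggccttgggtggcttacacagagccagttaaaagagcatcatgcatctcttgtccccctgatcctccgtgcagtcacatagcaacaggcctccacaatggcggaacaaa
Dnase2b (chr3:146615549-146615848, minus strand): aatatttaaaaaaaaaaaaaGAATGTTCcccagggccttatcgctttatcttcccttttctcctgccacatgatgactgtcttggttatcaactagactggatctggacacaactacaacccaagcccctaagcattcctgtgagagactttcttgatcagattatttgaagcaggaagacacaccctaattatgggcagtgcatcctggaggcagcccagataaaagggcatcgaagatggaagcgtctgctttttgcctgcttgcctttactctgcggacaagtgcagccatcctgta

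The Maf half-site was found once in each of the Mip, Lim2 and Bfsp1 windows, where it starts at base 119, 112 and 64 of the window, and in none of the others. It was present in 19.5% of the 32851 promoter windows in the table. The heat shock element GAANNTTC was found once, in the Dnase2b window at base 21, and occurs in 7.86% of all windows. The other phase, TTCNNGAA, was in no member window and in 8.52% of all windows. The windows of Bfsp2 and Gja3 held none of these words. These matches are letters only, and binding was not measured.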

How the data were processed

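RNA of whole eyes (7 WT, 7 Per3-/-) and hypothalamic blocks (8 WT, 8 Per3-/-) was hybridized to Agilent 60-base mouse arrays, 1 color and 1 array for each mouse and tissue. The authors deposited scanner intensity values made with Agilent Feature Extraction, which subtracts background within each array. The authors also deposited log2 values made in GeneSpring, which equal the 75th percentile scaling minus each probe's median over its tissue, and these served as an alternative only. The mice are separate animals; 1 Per3-/- eye was removed for hybridization errors per the methods, and a WT eye, replicate 2, was not analysed here.

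Levels are log2 of the processed intensity minus each array's 75th percentile. Spots marked as outliers (at most 91 an array) were left out, no dim probe was removed, and no member spot was missing. Eye files give no gene names, so probes were named through the hypothalamus files by probe identifier. Where a probe was not well above background in a group, the fold is a lower limit.

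Genotypes were compared in each tissue with limma 3.58.1 (R 4.3.3) over 41174 probes with Benjamini-Hochberg adjustment and a threshold of 0.05. Eye against hypothalamus and the difference of genotype effects were fitted together, each mouse being a random block with a fitted correlation of 0.0591. For this block, eye and hypothalamus of the same genotype and replicate number were taken as 1 mouse, which the sample titles do not state. Without the block all 7 genes were still called higher in the eye. Correlations used residuals from genotype means, 100000 permutations with a fixed seed and adjustment over 60 relations. Exact permutation tests covered single genes. On simulated data the limma step was tested before use. Beyond the members, the named genes were the lists of other lens genes, crystallins and lens transcription factors, and the 10 genes most correlated with the mean of the members. 1 gene of the lists is not reported here and was left out of their counts. The members and lists were chosen with earlier results of these data known. Alternatives were other normalization, background, filters, blocks and values, and leaving out each mouse. Confidence intervals are limma's 95% intervals, and their width is set by the number of mice.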

Additional observations from a re-analysis of the deposited data

Results flagged for a closer look

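In 20 groups of 7 or 8 arrays checked for a sample far from the others, 1 value stood out. Bfsp2 was at 6.66 in Per3-/- eye 5, while the other 6 Per3-/- eyes lay between 7.09 and 7.40, and the gap to the nearest of them was 0.587 of the group's range. Chance flags about 1 in 20 such groups. The same eye was the lowest of all for 6 of the 7 genes.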

How the results depend on the processing

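In the eye, none of the 7 genes passed the threshold under any of the alternatives tried, in 168 values (lowest adjusted p = 0.754), nor did Bfsp1, Bfsp2 or Hsf4 in the hypothalamus, in 78 values (lowest adjusted p = 0.437). The signs of these small differences were not stable. With the normexp background Bfsp2 in the eye was at -0.044, and with the mean over its 3 probes it was at -0.0024 in the hypothalamus. Leaving out each mouse in turn moved the eye difference from -0.0663 to 0.0183 for Bfsp1, from -0.0276 to 0.0956 for Bfsp2, from -0.119 to 0.0514 for Dnase2b, from -0.0986 to 0.0202 for Gja3, from -0.0492 to 0.0999 for Hsf4 and from -0.181 to 0.0023 for Lim2, and the hypothalamic difference of Bfsp2 from -0.0213 to 0.126. Mip kept a value below 0 in the eye throughout, as did Hsf4 and Bfsp1 in the hypothalamus. The probes called on the whole array fell from 8 to 4 in the eye and from 17 to 10 in the hypothalamus with the normexp background; the cause was not tested.

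No label ties same-numbered mice to each other, and the numbers were not taken as pairs because not every pair correlated. The correlation of same-numbered mice ranged from 0.0020 to 0.68 in the eye, where 5 of 6 correlated best with their own number, a hint of pairing from the data, and numbers share slides, and from -0.20 to 0.40 in the hypothalamus (1 of 8). With the replicate block 1 probe was called in the eye, in place of 8, and 5 in the hypothalamus, in place of 17, and no member; Bfsp2 was then at -0.0081 and Hsf4 at -0.0111 in the eye.

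All 7 genes were higher in the eye than in the hypothalamus under the 6 alternatives, but the median difference was 6.20 log2 units with the normexp background, whose offset raises dim signals. The covariation kept its sign: the median r was between 0.76 and 0.89 under the other alternatives and when each mouse was left out, and fell to 0.71 without the eyes of slide 2 and to 0.69 with slide means removed and without Per3-/- eye 5, settings chosen after seeing the data. Signals at or near background limit what can be said of Mip, Lim2, Gja3 and Dnase2b in the hypothalamus.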
